A study of Mus musculus with 9 samples.

Results

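The clustered protocadherins are the 59 genes of the deposited count table whose symbols begin with Pcdha (15 genes), Pcdhb (22 genes) or Pcdhg (22 genes), out of 24503 genes in all. They were followed in cultured mouse neural stem cells isolated from the cortex of E13.5 embryos, enriched as neurospheres and then grown on laminin (5 µg/mL) with FGF (10 ng/mL) and EGF (20 ng/mL). Every group carried the same Phf2flox/flox alleles and is otherwise labelled wild type. The cells received, by virus, a control hairpin without a target (shNT), the hairpin shRad21_1 or the hairpin shRad21_2, both against Rad21, which encodes a core cohesin subunit. There were 3 libraries in each group, and no Cre agent is named for any group. The labels do not say whether the libraries of a group came from separate cultures or animals, so the p-values below reflect only how far libraries of a group lie apart, possibly for technical reasons.

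Clustered protocadherins are cell adhesion proteins of the nervous system. Each alpha and gamma gene consists of a variable first exon with a promoter of its own, which is spliced to constant exons shared by the whole cluster, whereas each beta gene is a separate unit without shared exons. A single neuron uses only some of the promoters, and the resulting set of isoforms lets a neurite recognise and avoid its own branches. Most of the promoters are bound by CTCF and are brought to distant enhancers by cohesin loops, and promoters that are not used are kept silent by DNA methylation and by SMCHD1. The C-type members (Pcdhac1, Pcdhac2, Pcdhgc3, Pcdhgc4 and Pcdhgc5) lie at the 3′ ends of the alpha and gamma clusters and are chosen less at random than the others.

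All 59 genes were placed on chromosome 18 with RefSeq positions (GRCm38.p6, the assembly of mm10), 57 of them on the plus strand and 2, Pcdha7-g and Pcdhgb8, without a strand in the tables used here. The alpha cluster ran from 36930285 to 37188897 and the beta cluster from 37264998 to 37521419. The gamma cluster ran from 37661775 to 37841873. Pcdha7-g is a separate entry that starts in the alpha cluster and ends with the gamma cluster. Shared exons made up a median of 53.5% of the transcript length of alpha members and 44.8% of that of gamma members, and 0 bases of beta members. A read in a shared exon was therefore divided among the members of its cluster by an estimate, and levels of single alpha and gamma members carry that uncertainty on top of the spread between libraries. Beta members have no shared exons but resemble each other in sequence.

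Libraries held between 34780003 and 46644607 counts, and 3 counts stood for 0.0664 to 0.0880 CPM, the unit used below, in which counts are scaled to a common TMM-adjusted library total. Rad21 fell from 479 ± 45.0 CPM (SD, n = 3) to 180 ± 6.92 CPM with shRad21_1 and 85.3 ± 5.19 CPM with shRad21_2 (n = 3 each). Libraries were not evenly spaced. Replicates 2 and 3 of shNT and replicates 2 and 3 of shRad21_1 were close pairs, with a chi-square per gene of 3.19 and 2.18, against 23.0 to 69.9 for the other pairs within a group. shRad21_1 replicate 1 stood apart from the other libraries of its group. Counts of calls are therefore also given with each close pair summed into a single library.

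The clusters differed in level, and gamma transcripts made up most of the clustered protocadherin RNA. Summed over its 22 genes, the gamma cluster held 1832, 1820 and 1792 CPM in the shNT libraries. It held 1802, 1578 and 1574 CPM with shRad21_1 and 1187, 1067 and 1047 CPM with shRad21_2. The shRad21_2 libraries were all below both other groups, whereas shRad21_1 replicate 1 lay within the range of shNT. The beta cluster held 166, 197 and 189 CPM in shNT, 269, 277 and 269 CPM with shRad21_1, and 181, 199 and 161 CPM with shRad21_2. The shRad21_1 libraries were all above both other groups, and shNT and shRad21_2 overlapped. The alpha cluster held only 10.4, 8.95 and 8.67 CPM in shNT, 6.52, 9.85 and 10.5 CPM with shRad21_1, and 6.02, 5.92 and 4.22 CPM with shRad21_2. Relative to shNT, the log2 ratio of the summed levels under shRad21_1 was -0.06 for alpha, 0.57 for beta and -0.14 for gamma. Under shRad21_2 it was -0.79, -0.03 and -0.72. Without Pcdhgc3, its most abundant gene, the gamma cluster summed to 231 ± 10.5 CPM in shNT, 182 ± 9.68 CPM with shRad21_1 and 126 ± 7.85 CPM with shRad21_2 (SD, n = 3 each), and the groups did not overlap. No test was made on these sums. In bulk RNA, fewer cells that express a gene and less RNA per cell cannot be told apart, here and for every member below.

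**Figure D1:**
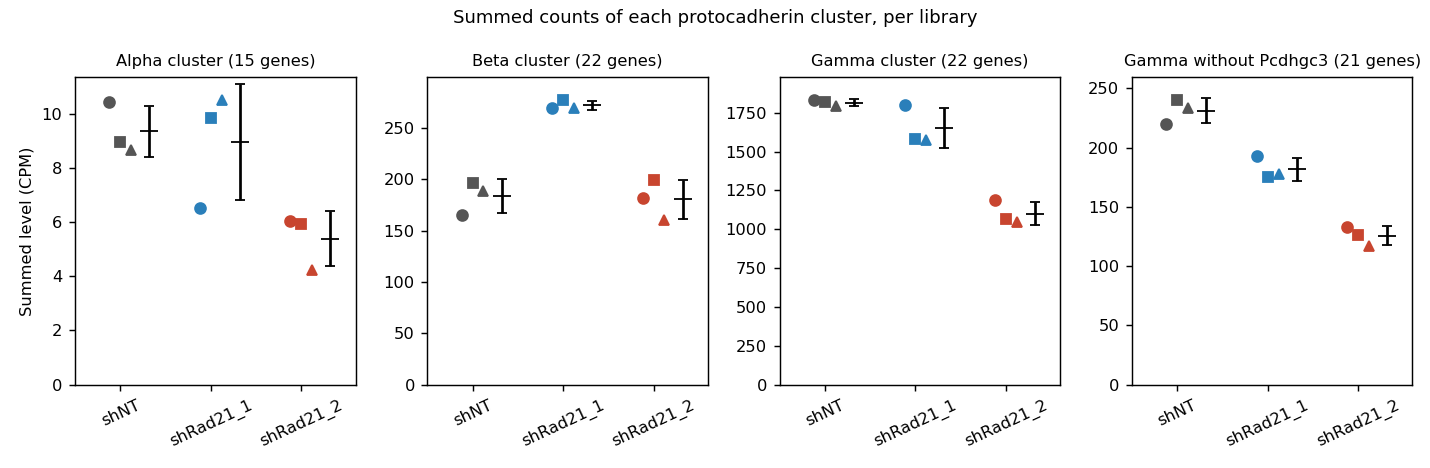
Summed level of each cluster, and of the gamma cluster without Pcdhgc3 (vertical axes, CPM), in each library of the 3 groups (horizontal axis). Circles, squares and triangles are replicates 1, 2 and 3, and the bars beside them give the mean ± SD (n = 3). Beta libraries with shRad21_1 sit at 269 to 277 CPM, above all others, and gamma libraries with shRad21_2 sit at 1047 to 1187 CPM, below all others.

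Of the 59 genes, 47 had enough counts to be tested. These were 4 of 15 alpha, 21 of 22 beta and 22 of 22 gamma members. The 11 untested alpha genes were Pcdha1 to Pcdha8, Pcdha7-g, Pcdha11 and the C-type Pcdhac1, with between 0 and 44 counts over all 9 libraries. Pcdha1 alone had 0 counts in every library. The untested beta gene, Pcdhb1, had 10 counts in all.

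Most of the alpha signal in control cells came from its last C-type member. Pcdhac2, which serves axon tiling in serotonergic neurons, was measured at 8.55, 6.42 and 6.92 CPM in shNT and made up 77.9% ± 5.41 (SD, n = 3) of alpha counts there. It was measured at 1.22, 5.68 and 5.24 CPM with shRad21_1 and at 2.99, 2.79 and 2.94 CPM with shRad21_2. All 6 knockdown libraries were below the shNT libraries, and shRad21_1 replicate 1 was lower than any other library. Pcdhac2 fell by 1.33 in log2 units with shRad21_2 (SE 0.43, edgeR adjusted p = 0.0291). Under shRad21_1 it was at a log2 fold change of -0.85 (SE 0.42, edgeR adjusted p = 0.232), or -0.42 (adjusted p = 0.132) without replicate 1 of that hairpin. The call under shRad21_2 was lost when any shNT or shRad21_2 library was left out, with an adjusted p of at most 0.0801, and when close pairs were summed (0.0608). Without shRad21_1 replicate 1 the adjusted p was 5.02e-05.

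Among the other alpha members, Pcdha9 and Pcdha12 moved in different directions, both at very low counts. Pcdha9 had 16, 28 and 20 counts in shNT, 81, 94 and 61 with shRad21_1, and 64, 56 and 23 with shRad21_2. The shRad21_1 libraries were all above shNT, and the lowest shRad21_2 library, at 0.656 CPM, overlapped the highest shNT library, at 0.661 CPM. Pcdha9 rose by 2.03 in log2 units with shRad21_1 (SE 0.37, edgeR adjusted p = 0.00918) and rose by 1.26 with shRad21_2 (SE 0.37, adjusted p = 0.0204). The first call was lost without shNT replicate 3 and with close pairs summed (adjusted p = 0.0731). The second was lost without shNT replicate 1 or 3, without shRad21_2 replicate 1 or 2, with close pairs summed, and when replicate 1 was dropped from both shNT and shRad21_1. Pcdha12 had 15, 36 and 17 counts in shNT and 26, 16 and 40 with shRad21_1, but 4, 0 and 3 with shRad21_2. It fell under shRad21_2 (log2 fold change -3.11, SE 0.71, edgeR adjusted p = 0.00586), and was also lower there than with shRad21_1 (-3.53, SE 0.70, adjusted p = 0.00595). Both calls held in the 18 of 19 alternatives in which the gene was tested. Pcdha10, the neighbour of Pcdha9, had log2 fold changes of 1.38 (edgeR adjusted p = 0.0768, DESeq2 Wald test 0.0400) and 0.50 (adjusted p = 0.395). All of these alpha members share the same constant exons, so a count can pass from one to another in the estimate. Summed without the C-types, alpha counts were 64, 101 and 77 in shNT, 191, 147 and 196 with shRad21_1, and 127, 107 and 45 with shRad21_2.

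The gamma C-types covered the widest range of levels. Pcdhgc3, which binds the Wnt pathway scaffold AXIN1 and lies from 37806410 to 37841873, was the most abundant of the 57 members with a transcript length, with 338 CPM per kilobase of transcript in shNT. The next per length, Pcdhb5, had 7.41 CPM per kilobase. Pcdhgc3 took 87.3% ± 0.65 of gamma counts in shNT, 89.0% ± 0.30 with shRad21_1 and 88.6% ± 0.37 with shRad21_2 (SD, n = 3 each), so the gamma sum above mostly follows this gene. Its level was 1612, 1580 and 1558 CPM in shNT, 1609, 1403 and 1396 CPM with shRad21_1, and 1054, 941 and 929 CPM with shRad21_2. The shRad21_2 libraries were all below the rest, and shRad21_1 overlapped shNT through its replicate 1. Pcdhgc3 fell by 0.70 with shRad21_2 (SE 0.08, edgeR adjusted p = 1.50e-04), and its log2 fold change under shRad21_1 was -0.11 (SE 0.08, adjusted p = 0.449). The hairpins differed by -0.59 (SE 0.08, edgeR adjusted p = 0.00107), with shRad21_2 the lower. The call under shRad21_2 and the difference between hairpins held in 19 of 19 alternatives.

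Pcdhgc4, which is needed for the survival of interneurons, and Pcdhgc5, which can bind GABA-A receptors, were low and uneven between libraries. Pcdhgc4 was measured at 1.87, 2.36 and 2.24 CPM in shNT, 3.18, 1.63 and 2.05 CPM with shRad21_1, and 0.974, 3.28 and 0.714 CPM with shRad21_2. Pcdhgc5 was measured at 3.16, 3.82 and 3.06 CPM, at 1.69, 1.97 and 1.28 CPM, and at 0.974, 3.31 and 0.314 CPM. shRad21_2 replicate 2 was higher than the other libraries of its group for both genes. Neither gene passed the edgeR test under either hairpin with all libraries in a single fit. Pcdhgc5 was called lower under shRad21_2 by limma-voom (-1.72, adjusted p = 0.0271) and with the replicate number as a block (-1.44, edgeR adjusted p = 0.0428), and under shRad21_1 in a fit of those 2 groups alone (-1.03, edgeR adjusted p = 0.0305). Without shRad21_2 replicate 2, the log2 fold change under shRad21_2 was -1.34 for Pcdhgc4 (edgeR adjusted p = 0.0140) and -2.34 for Pcdhgc5 (adjusted p = 0.00356), past the threshold in both cases. Pcdhac1 had at most 0.240 CPM in any library and was not tested.

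Under shRad21_1, members called by the edgeR quasi-likelihood test at a Benjamini-Hochberg adjusted p under 0.05 over all genes numbered 11 higher and 6 lower of 47. The share of all 13560 tested genes with a call was 9.82%, of which 4.19% were higher and 5.63% lower than shNT. The higher calls were Pcdha9 and 10 of 21 beta members, and the lower calls were 6 of 22 gamma members. No beta member was called lower, and none was at an unadjusted p under 0.05 (0 also with the DESeq2 Wald test and with limma-voom). No gamma member was called higher by any of these tools, with 2 at an unadjusted p under 0.05 in edgeR. The median log2 fold change was 0.56 over the tested beta members and -0.70 over the gamma members, against 0.0052 over all genes tested. Leaving out a single library left 7 higher calls (shNT replicate 3) and 2 or 3 lower calls (2 without shNT replicate 3, 3 without shNT replicate 2 and 3 without shRad21_1 replicate 2). The DESeq2 Wald test called 11 members lower.

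Among the beta genes, the largest increase was that of Pcdhb2, the second gene of the cluster (37294840 to 37297614). Its level was 3.52, 4.39 and 3.97 CPM in shNT, 12.7, 12.4 and 12.7 CPM with shRad21_1, and 6.27, 6.60 and 3.82 CPM with shRad21_2. The shRad21_1 libraries were all far above both other groups, and shRad21_2 overlapped shNT. Pcdhb2 rose by 1.67 in log2 units with shRad21_1 (SE 0.20, edgeR adjusted p = 0.00135). Its log2 fold change under shRad21_2 was 0.49 (SE 0.20, adjusted p = 0.0671), and the hairpins differed by -1.18 (SE 0.19, adjusted p = 0.00248).

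Pcdhb3 and Pcdhb5 were the beta genes called higher under both hairpins. Pcdhb3 was measured at 3.52, 3.30 and 3.30 CPM in shNT, 7.75, 9.02 and 8.96 CPM with shRad21_1, and 6.62, 6.77 and 5.05 CPM with shRad21_2. It rose by 1.34 with shRad21_1 (SE 0.15, edgeR adjusted p = 0.00116) and rose by 0.87 with shRad21_2 (SE 0.15, adjusted p = 0.00156). Pcdhb5, the most abundant beta gene per length (37320381 to 37323913), was measured at 26.3, 26.0 and 26.3 CPM in shNT, 48.2, 46.8 and 47.1 CPM with shRad21_1, and 33.7, 33.8 and 32.1 CPM with shRad21_2. Its 3 groups did not overlap, with shRad21_2 between the others. It rose by 0.85 with shRad21_1 (SE 0.07, edgeR adjusted p = 3.46e-04) and rose by 0.34 with shRad21_2 (SE 0.07, adjusted p = 0.00374), and the hairpins differed by -0.51 (SE 0.07, adjusted p = 0.00103).

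Pcdhb9 and Pcdhb10 lie next to each other, and both rose with shRad21_1. Pcdhb9 stood at 9.54, 8.36 and 8.43 CPM in shNT, 19.2, 20.9 and 18.6 CPM with shRad21_1, and 10.5, 8.27 and 7.62 CPM with shRad21_2. It rose by 1.16 under shRad21_1 (SE 0.14, edgeR adjusted p = 0.00125), whereas shRad21_2 and shNT overlapped, with a log2 fold change of 0.01 that turned negative in 7 of 19 alternatives. Pcdhb10 stood at 10.2, 13.9 and 12.6 CPM, at 23.8, 25.4 and 24.4 CPM, and at 15.2, 14.99 and 13.6 CPM. It rose by 1.00 under shRad21_1 (SE 0.12, edgeR adjusted p = 0.00153), and its log2 fold change under shRad21_2 was 0.25 (adjusted p = 0.116). The remaining beta calls under shRad21_1 were Pcdhb15 (1.10), Pcdhb4 (0.88), Pcdhb16 (0.75), Pcdhb17 (0.59) and Pcdhb6 (0.56). Pcdhb2, Pcdhb3, Pcdhb5, Pcdhb9 and Pcdhb10 were called under shRad21_1 in 19 of 19 alternatives, including close pairs summed. Pcdhb6 and Pcdhb17 were called in 5 and 10 of 19. With the replicate number as a block, Pcdhb6 was not called (0.56, edgeR adjusted p = 0.0617).

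Not all beta genes followed. Pcdhb18, near the 3′ end of the cluster, was measured at 16.1, 18.2 and 17.7 CPM in shNT and at 16.9, 17.3 and 18.3 CPM with shRad21_1, and at 11.3, 13.8 and 10.1 CPM with shRad21_2. Pcdhb11 was measured at 12.3, 13.0 and 13.6 CPM, at 14.9, 11.7 and 11.5 CPM, and at 9.52, 8.94 and 7.48 CPM. For both genes shRad21_1 overlapped shNT, and all shRad21_2 libraries lay below both groups. Under shRad21_2, Pcdhb18 fell by 0.56 (SE 0.12, edgeR adjusted p = 0.00487) and Pcdhb11 fell by 0.59 (SE 0.14, adjusted p = 0.00720), both in 19 of 19 alternatives. Their log2 fold changes under shRad21_1 were 0.01 for Pcdhb18, which turned negative with library totals and 3 other alternatives, and -0.03 for Pcdhb11, which turned positive in 4. Pcdhb19 was measured at 13.4, 17.3 and 16.8 CPM in shNT, 18.7, 19.2 and 19.5 CPM with shRad21_1, and 12.5, 16.4 and 10.4 CPM with shRad21_2. It was not called against shNT under either hairpin.

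The rest of the beta cluster spread between these patterns. Pcdhb4 averaged 7.09 ± 0.613 CPM in shNT, 13.0 ± 0.530 CPM with shRad21_1 and 8.40 ± 0.318 CPM with shRad21_2 (SD, n = 3 each). Pcdhb15, with 3.63 ± 0.888, 7.81 ± 1.00 and 4.18 ± 0.155 CPM, likewise had its highest level with shRad21_1 and close levels in the other groups. Pcdhb7 (0.40), Pcdhb13 (0.65) and Pcdhb14 (0.45) were positive but not called under shRad21_1 (edgeR adjusted p = 0.147, 0.106 and 0.137). Pcdhb22 was negative under both hairpins (-0.32 and -0.57), without a call in edgeR (adjusted p = 0.387 and 0.0560). Under shRad21_2 the DESeq2 Wald test and limma-voom called it lower (adjusted p = 0.0305 and 0.0492). Pcdhb8 had a log2 fold change of 0.08 under each hairpin (SE 0.32 for both, edgeR adjusted p = 0.910 and 0.863). Its libraries spread widely with shRad21_2, at 3.68, 1.67 and 1.88 CPM.

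Against shNT, the fold changes of beta genes tended to be more positive towards the 5′ end of the cluster. Over the 21 tested beta members, Spearman's rho between position and log2 fold change was -0.64 under shRad21_1 and -0.62 under shRad21_2, given as a description, since both comparisons use the same shNT libraries and the genes share every library. Over the 22 gamma members the same value was -0.09 and 0.08. Divided after the values were seen, the genes from Pcdhb2 to Pcdhb11 had a median log2 fold change of 0.86 under shRad21_1, with 7 of 10 called higher. Those from Pcdhb12 to Pcdhb22 had a median of 0.27, with 3 of 11 called higher. Among all genes tested, 4.19% were called higher under that hairpin. Under shRad21_2 the medians were 0.16 and -0.26.

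**Figure D2:**
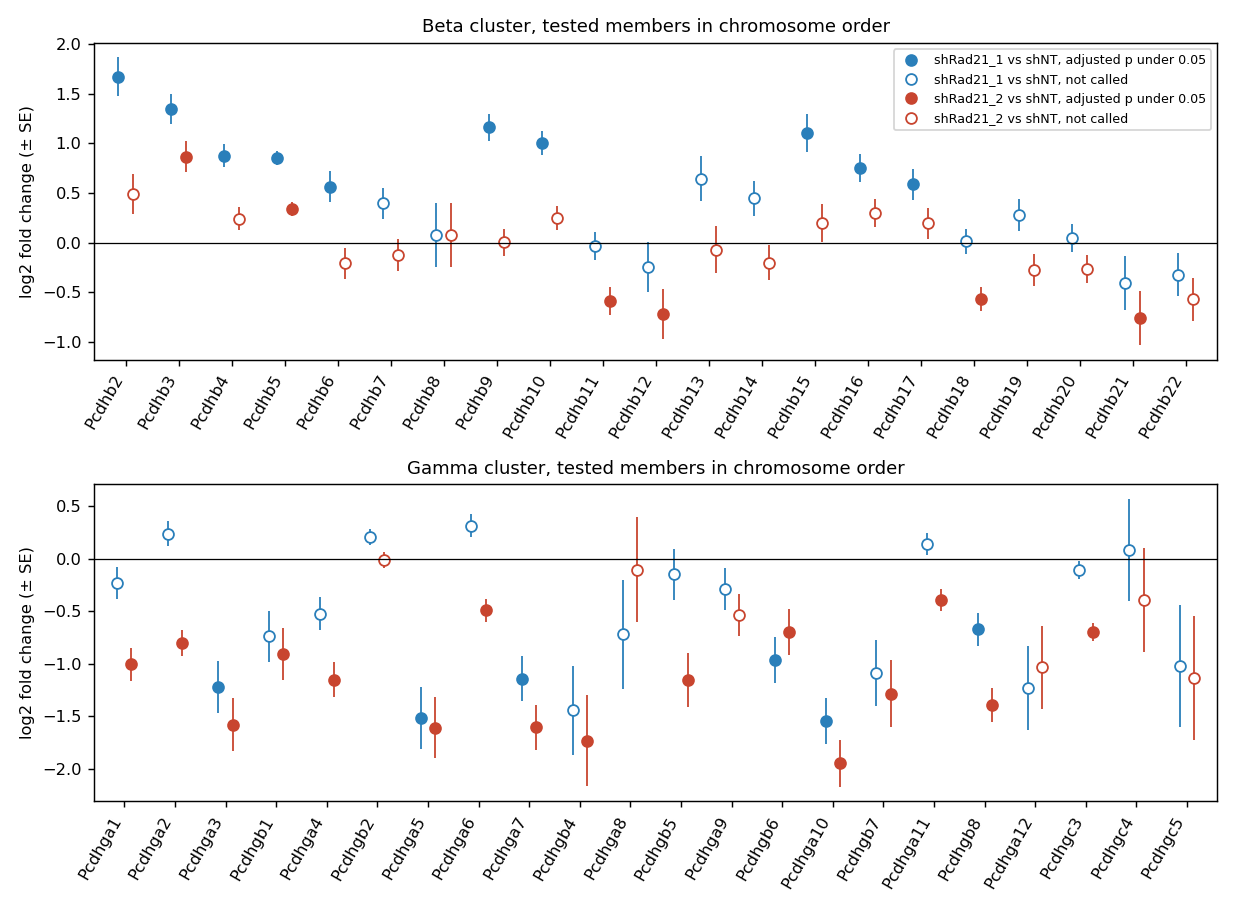
Log2 fold change against shNT ± SE (vertical axis) of the tested beta and gamma members in chromosome order (horizontal axis), for shRad21_1 (blue) and shRad21_2 (red). Filled points have an adjusted p under 0.05 and open points do not. Blue points of the beta cluster lie highest at Pcdhb2 (1.67) and near 0 at Pcdhb18 and Pcdhb20, and every red point of the gamma cluster is below 0, though that of Pcdhgb2 (-0.01) changed sign in 3 of 19 alternatives.

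Under shRad21_2, 3 members were called higher and 22 lower of 47, against a background of 21.1% higher and 22.5% lower among all genes tested. The higher calls were Pcdha9, Pcdhb3 and Pcdhb5. The lower calls were Pcdha12, Pcdhac2, 4 beta members (Pcdhb11, Pcdhb12, Pcdhb18 and Pcdhb21) and 16 of 22 gamma members. All 22 gamma fold changes were negative (Pcdhgb2, at -0.01, was positive in 3 of 19 alternatives), with a median of -1.02, against 0.012 over all genes tested. The beta median was -0.07. No gamma member was called higher by edgeR, DESeq2 or limma-voom, and 0 were higher at an unadjusted p under 0.05. Of the 22 lower calls, 16 held without each library in turn, and 17 held with close pairs summed. Over all genes tested, close pairs summed gave 2126 lower calls, against 3056 in the main fit. Pcdhb12 and Pcdhb21 were called in 10 and 11 of 19 alternatives.

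The gamma-A and gamma-B members differ in the sequence of the variable exon and alternate along the cluster. Under shRad21_1, 4 of 12 gamma-A and 2 of 7 gamma-B members were called lower, and under shRad21_2 it was 9 of 12 and 6 of 7. Among all genes tested, 5.63% and 22.5% were called lower. Fold changes were negative for 9 of 12 and 6 of 7 under shRad21_1, and for 12 of 12 and 7 of 7 under shRad21_2. Pcdhga10 had the most negative fold change of the gamma members under each hairpin. It was measured at 6.41, 5.26 and 4.97 CPM in shNT, 1.96, 2.03 and 1.70 CPM with shRad21_1, and 1.02, 1.64 and 1.66 CPM with shRad21_2. Every knockdown library was far below every shNT library. It fell by 1.55 with shRad21_1 (SE 0.22, edgeR adjusted p = 0.00323) and fell by 1.95 with shRad21_2 (SE 0.22, adjusted p = 1.28e-04). With close pairs summed the adjusted p under shRad21_1 was 0.0524.

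Pcdhga7 and Pcdhgb7 showed the same split within the knockdown groups. Pcdhga7 was measured at 20.6, 24.9 and 24.6 CPM in shNT, 14.5, 8.83 and 8.48 CPM with shRad21_1, and 9.35, 7.01 and 6.62 CPM with shRad21_2. It fell by 1.14 with shRad21_1 (SE 0.21, edgeR adjusted p = 0.00996) and fell by 1.61 with shRad21_2 (SE 0.22, adjusted p = 3.26e-04). Pcdhgb7 was measured at 15.9, 15.6 and 14.3 CPM in shNT, 11.4, 5.07 and 5.05 CPM with shRad21_1, and 8.55, 4.96 and 5.19 CPM with shRad21_2. Replicate 1 was the highest library of each knockdown group for both genes, and all knockdown libraries were below shNT. Pcdhgb7 fell by 1.29 with shRad21_2 (SE 0.32, edgeR adjusted p = 0.00901). Under shRad21_1 it was at a log2 fold change of -1.09 (SE 0.32, edgeR adjusted p = 0.0569), and with the replicate number as a block it was -1.20 (adjusted p = 0.0130). Without shRad21_1 replicate 1 it was -1.59 (adjusted p = 0.00152).

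For Pcdhga3 and Pcdhga5, too, every knockdown library lay below every shNT library. Pcdhga3 was measured at 6.30, 6.54 and 6.41 CPM in shNT, 2.69, 2.45 and 3.11 CPM with shRad21_1, and 3.08, 1.47 and 1.83 CPM with shRad21_2. It fell by 1.22 with shRad21_1 (SE 0.25, edgeR adjusted p = 0.0143) and fell by 1.58 with shRad21_2 (SE 0.25, adjusted p = 8.45e-04). Pcdhga5 was measured at 3.602, 4.01 and 4.48 CPM, at 2.12, 0.880 and 1.22 CPM, and at 1.46, 1.35 and 1.14 CPM. It fell by 1.52 with shRad21_1 (SE 0.29, edgeR adjusted p = 0.0116) and fell by 1.61 with shRad21_2 (SE 0.29, adjusted p = 0.00185). The call of Pcdhga3 under shRad21_1 was lost without shNT replicate 2 or 3, without shRad21_1 replicate 2 and with close pairs summed (adjusted p of 0.0517 to 0.130), and that of Pcdhga5 without shNT replicate 3 and with close pairs summed (0.0551 and 0.126). The hairpins did not differ past the threshold for Pcdhga3 (-0.36, adjusted p = 0.316) or Pcdhga5 (-0.09, adjusted p = 0.847, positive in 3 of 19 alternatives).

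Pcdhgb8, which GENCODE annotates as a polymorphic pseudogene, had the highest CPM of all gamma members besides Pcdhgc3 in shNT. It was measured at 41.3, 45.7 and 45.1 CPM in shNT, 31.6, 24.8 and 26.4 CPM with shRad21_1, and 20.0, 17.5 and 12.6 CPM with shRad21_2. The groups did not overlap and stepped down in the order of Rad21 mRNA. It fell by 0.67 with shRad21_1 (SE 0.16, edgeR adjusted p = 0.0264) and fell by 1.40 with shRad21_2 (SE 0.16, adjusted p = 1.30e-04), and the hairpins differed by -0.72 (SE 0.16, adjusted p = 0.00981). The first of these calls was lost without any single shNT library, without shRad21_1 replicate 2 or 3, and with close pairs summed (adjusted p = 0.222). Pcdhgb6 was the remaining member called lower under both hairpins (-0.97 and -0.70), and both calls were lost in 6 of 19 alternatives. With close pairs summed, 0 of the 6 gamma calls under shRad21_1 were kept, while 5 of its 11 higher calls were. That setting gave 68 lower and 64 higher calls over all genes tested under shRad21_1, against 763 and 568 in the main fit.

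Some gamma members were not called under shRad21_1 by edgeR. Pcdhga6 was measured at 31.1, 35.5 and 33.1 CPM in shNT, 38.3, 41.4 and 44.5 CPM with shRad21_1, and 21.04, 23.2 and 26.9 CPM with shRad21_2, with no overlap between the groups. It fell by 0.49 with shRad21_2 (SE 0.11, edgeR adjusted p = 0.00526), its log2 fold change under shRad21_1 was 0.32 (adjusted p = 0.0950), and the hairpins differed by -0.81 (SE 0.11, adjusted p = 9.38e-04). Pcdhgb2 averaged 21.3 ± 0.536 CPM in shNT, 24.6 ± 0.468 CPM with shRad21_1 and 21.1 ± 0.870 CPM with shRad21_2 (SD, n = 3 each), and was not called by edgeR in any comparison. Its log2 fold change under shRad21_2 was -0.01 (SE 0.08), positive in 3 of 19 alternatives. Pcdhga11 fell by 0.40 with shRad21_2 (SE 0.11, edgeR adjusted p = 0.0128), a call lost without shNT replicate 2 and with close pairs summed. Pcdhga4 fell by 1.15 with shRad21_2 (SE 0.16, adjusted p = 4.36e-04) and had a log2 fold change of -0.52 under shRad21_1 (adjusted p = 0.0675), where all its libraries were below shNT and the DESeq2 Wald test and limma-voom called it (adjusted p = 0.0214 and 0.0400).

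At the 5′ end of the gamma cluster, Pcdhga1 averaged 5.90 ± 0.407 CPM in shNT, 5.01 ± 0.325 CPM with shRad21_1 and 2.93 ± 0.437 CPM with shRad21_2 (SD, n = 3 each). Its neighbour Pcdhga2 averaged 11.3 ± 1.12, 13.3 ± 1.28 and 6.45 ± 0.276 CPM. Both fell with shRad21_2, Pcdhga1 by a log2 fold change of -1.005 (SE 0.16, edgeR adjusted p = 7.98e-04) and Pcdhga2 by one of -0.81 (SE 0.12, adjusted p = 7.12e-04), and neither was called under shRad21_1. Pcdhgb4 fell under shRad21_2 (-1.74, SE 0.43, adjusted p = 0.00919). Under shRad21_1 its log2 fold change of -1.45 missed the threshold (edgeR adjusted p = 0.0596), and with the replicate number as a block it passed (-1.44, adjusted p = 0.0415). Pcdhgb5 (-1.16) and Pcdhgb1 (-0.91) completed the gamma calls under shRad21_2, while Pcdhga8 (-0.10), Pcdhga9 (-0.54) and Pcdhga12 (-1.03) missed the threshold there in edgeR. Under shRad21_2, Pcdhga9 and Pcdhga12 were called lower by the DESeq2 Wald test (adjusted p = 0.0368 and 0.0462) and by limma-voom (adjusted p = 0.0475 and 0.0298), and Pcdhga12 was also called lower under shRad21_1 by the DESeq2 Wald test (-1.23, adjusted p = 0.0447).

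**Figure D3:**
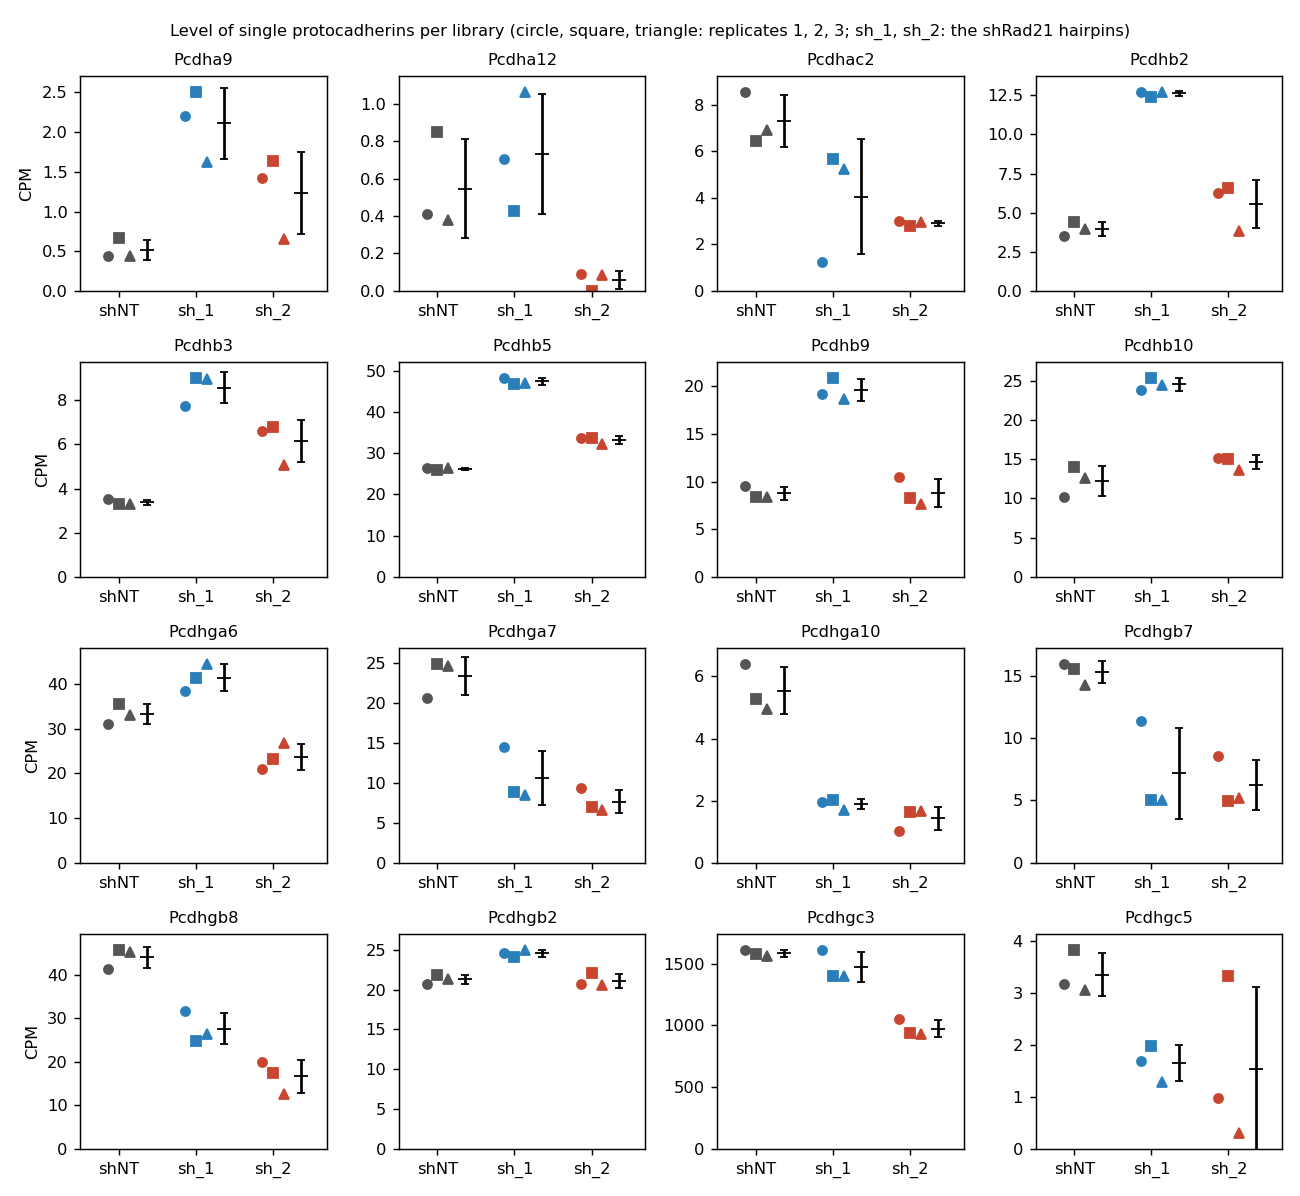
Level (vertical axes, CPM, each panel on its own scale from 0) of 16 protocadherins in each library of the 3 groups (horizontal axes). Symbols are replicates 1, 2 and 3, and bars give the mean ± SD (n = 3), with the lower bar of Pcdhgc5 under shRad21_2 cut at 0. Pcdhb5 forms 3 separate levels near 26, 47 and 33 CPM, whereas replicate 1 lies apart from its group for Pcdhac2 with shRad21_1 (1.22 CPM) and for Pcdhgb7 with both hairpins (11.4 and 8.55 CPM).

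Compared directly, the hairpins differed at many members, with shRad21_2 the lower at each called member. Of 47 members, 24 were called lower with shRad21_2 than with shRad21_1, against 14.4% lower and 11.9% higher among all genes tested. These were Pcdha12, 15 of 21 beta members and 8 of 22 gamma members. No member was called higher by edgeR, the DESeq2 Wald test or limma-voom, and 0 were higher at an unadjusted p under 0.05. The median was -0.55 for beta and -0.38 for gamma, against -0.0022 over all genes tested. Pcdhb9 differed by -1.15 (SE 0.14, edgeR adjusted p = 4.25e-04), Pcdhga2 by -1.05 (SE 0.12, adjusted p = 4.49e-04) and Pcdhb10 by -0.75 (SE 0.12, adjusted p = 0.00223). Pcdhga10 (-0.41) and Pcdhga7 (-0.46) were not called (adjusted p = 0.213 and 0.137). With close pairs summed, 13 of the 24 calls were kept, while lower calls over all genes tested went from 1955 to 920.

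**Figure D4:**
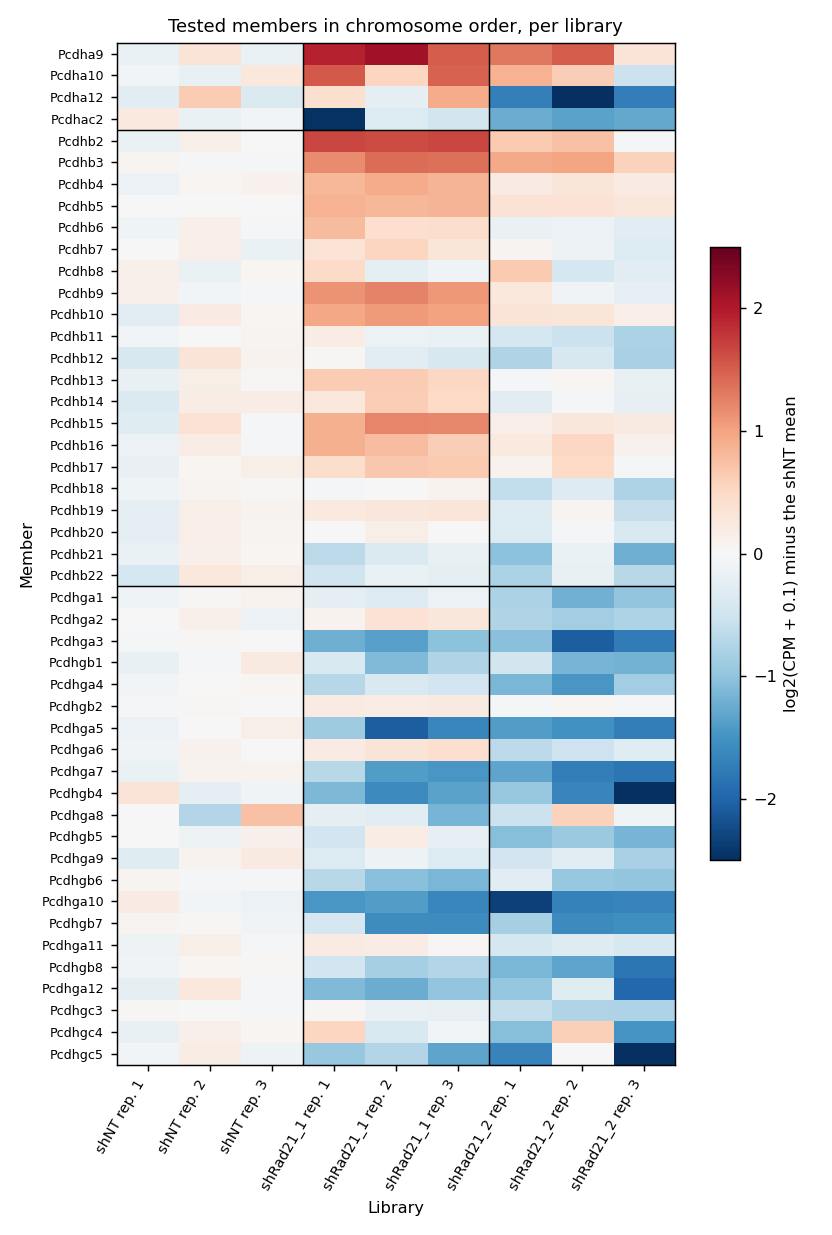
The 47 tested members in chromosome order (vertical axis) in each of the 9 libraries (horizontal axis). Colour gives log2(CPM + 0.1) minus the mean of the shNT libraries, red above and blue below, with the scale ending at 2.5 in each direction. Red fills the upper beta cluster with shRad21_1, blue fills much of the gamma cluster with shRad21_2, and shRad21_1 replicate 1 differs from the other libraries of its group at Pcdhac2.

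Genes that act on or beside the clusters were read from lists. Of 26 tested cluster regulators (CTCF, cohesin and its loaders, DNA methylation and silencing factors), Stag1 was called higher and Rad21 lower under shRad21_1. Under shRad21_2, 14 were called higher and only Rad21 lower, against 21.1% higher and 22.5% lower among all genes tested (4.19% and 5.63% under shRad21_1). Stag1, which encodes a cohesin subunit, rose by 0.61 with shRad21_1 (SE 0.08, edgeR adjusted p = 0.00303) and rose by 1.24 with shRad21_2 (SE 0.09, adjusted p = 7.05e-06). Ctcf averaged 182 ± 3.62 CPM in shNT, 193 ± 3.52 CPM under shRad21_1 and 207 ± 7.94 CPM under shRad21_2 (SD, n = 3 each), and rose by 0.19 with shRad21_2 (SE 0.06, adjusted p = 0.0313). Smchd1 was not called (0.19 and 0.27, adjusted p = 0.339 and 0.0838). With close pairs summed, 4 of the 26 regulators were higher under shRad21_2. Of all 13560 genes tested, 1584 were called higher in that setting, against 2861 in the main fit.

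Of 22 binding partners and signalling proteins of protocadherins, Adam10 was called lower under shRad21_1, where 5.63% of all genes tested were lower. Under shRad21_2, 8 were called lower and 2 higher, beside 22.5% lower and 21.1% higher among all genes. Adam10, the protease that sheds protocadherin ectodomains, averaged 364 ± 10.1 CPM in shNT, 279 ± 0.62 CPM under shRad21_1 and 226 ± 14.8 CPM under shRad21_2. Cyfip2, a subunit of the WAVE actin regulator, fell by 1.22 with shRad21_2 (SE 0.12, edgeR adjusted p = 5.80e-05), and Nlgn1, a synaptic adhesion protein, fell by 1.36 (SE 0.21, adjusted p = 6.67e-04). Their log2 fold changes under shRad21_1 were 0.05 and 0.16, neither of them called.

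Of 22 tested neighbours outside and between the clusters on chromosome 18, 1 was called lower under shRad21_1. Under shRad21_2, 2 were called higher and 5 lower. The lower calls were near the shares among all genes tested (5.63% and 22.5%). The share of all genes called higher under shRad21_2 was 21.1%. Gnpda1, an enzyme of glucosamine metabolism, was measured at 61.1, 78.3 and 79.0 CPM in shNT, 34.6, 49.6 and 51.0 CPM with shRad21_1, and 18.4, 16.9 and 18.8 CPM with shRad21_2. It fell by 0.69 with shRad21_1 (SE 0.15, edgeR adjusted p = 0.0207) and fell by 2.01 with shRad21_2 (SE 0.16, adjusted p = 1.56e-05). Ndfip1, an adaptor of ubiquitin ligases, fell by 1.14 with shRad21_2 (SE 0.14, adjusted p = 1.72e-04). Taf7, the gene between the beta and gamma clusters, rose by 0.79 with shRad21_2 (SE 0.17, adjusted p = 0.00372); it was named after its value was seen. Of the 10 tested protocadherins outside the clusters, Pcdh15 alone was called under shRad21_1, where it fell by 1.45 (SE 0.37, adjusted p = 0.0369). Under shRad21_2, 2 were called higher and 4 lower, where the shares among all genes were 21.1% and 22.5%. Pcdh1, which is also on the list of neighbours, was among the lower calls of both lists. Pcdh15 had the most negative fold change (-3.99, SE 0.42, adjusted p = 8.05e-05).

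Markers of cell types differed between the groups, and their calls stand beside 5.63% lower and 4.19% higher among all genes under shRad21_1, and 22.5% lower and 21.1% higher under shRad21_2. The 12 neural stem cell markers summed to between 9844 and 10005 CPM in shNT, 7872 and 9703 with shRad21_1, and 7792 and 8709 with shRad21_2, and 0 of them were at 0 in every library. Of these 12, Prom1 was called higher under shRad21_1. Under shRad21_2, Nes, Pax6 and Prom1 were called higher and 5 lower (Fabp7, Slc1a3, Sox9, Msi1 and Ptprz1). The 9 astrocyte markers summed to between 1056 and 1140 CPM in shNT, and 503 and 906 with shRad21_1 (lowest in replicate 1). Under shRad21_1, 0 of 9 were called, with 7 negative and 2 positive fold changes. With shRad21_2 the 9 markers summed to between 328 and 356, and 7 of 9 were called lower. The 15 neuronal markers summed to between 1215 and 1340 CPM, 1161 and 1243, and 1068 and 1182, with Slc17a6 at 0 throughout. Map2 made up most of these sums, at 740 to 884 CPM in shNT, 864 to 924 with shRad21_1 and 932 to 1064 with shRad21_2. Of 10 tested neuronal markers, 3 were called lower and 1, Syt1, higher under shRad21_1. Under shRad21_2, 6 were called lower and 1, Map2, higher. The 10 markers of the oligodendrocyte lineage summed to between 2757 and 2888 CPM, 3092 and 3230, and 2694 and 3088, with 6 of 8 tested lower and 1, Olig2, higher under shRad21_2, and 1, Pdgfra, lower under shRad21_1. Microglial, endothelial and mesenchymal markers summed to at most 9.95 CPM in any library, with Aif1, Cx3cr1 and Dcn at 0 throughout. The part of these differences in the protocadherin values was not tested. Replicate 1 of shRad21_1 had the lowest summed astrocyte markers of its group. Without that library, 10 members were called higher and 8 lower under shRad21_1, against 11 and 6 with it. The same fit gave 639 higher and 959 lower calls over the 13560 genes, against 568 and 763 in the main fit. In the remaining shRad21_1 libraries the summed astrocyte markers, at 904 and 906 CPM, still lay below shNT. Their Gfap alone, at 14.6 and 15.1 CPM, lay above shNT (4.62 to 10.5 CPM). Leaving out replicate 1 therefore does not test the part of cell types.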

How the data were processed

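The authors deposited a single table of counts per gene symbol for 9 libraries, whole numbers that are not normalised. Per the submitters' processing notes, FastQC, cutadapt, Trim Galore, Bowtie2 and RSEM were used with the build mm10. Tool versions, gene annotation, strand setting and the rounding of RSEM estimates are each not given in the sources used here. From these counts, edgeR 4.0.16 (R 4.3.3, limma 3.58.1) fitted 3 group means to all 9 libraries after TMM scaling; filterByExpr by group kept 13560 of 24503 genes. Tests were two-sided quasi-likelihood tests with Benjamini-Hochberg adjustment over all genes, called at an adjusted p under 0.05 with no minimum fold. Positions came from RefSeq for 59 of 59 members and transcript lengths for 57. The fits were first tested on simulated data. Alternatives numbered 19, among them DESeq2 1.42.0 and limma-voom. The members, the gene lists, the tests and the alternatives were chosen with earlier results of these data known.

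Named members were all 5 C-types and, in each cluster, the 4 with the highest mean CPM and the 4 with the smallest p under each hairpin. Listed genes were named where called with at least a 2-fold change, besides Ctcf and Smchd1. Adam10, Taf7, Pcdh15 and all other members in the text were picked once their values were known. Same-numbered shNT and shRad21_1 libraries deviated together (correlations of 0.116 to 0.242). Replicates 2 and 3 also correlated crosswise (0.154 and 0.160), above their same-numbered values (0.116 and 0.117). The numbers therefore do not settle which of these libraries are pairs. The main fit used no pairing, and the replicate number as a block was among the alternatives. For shNT and shRad21_2 the range was 0.0644 to 0.0833, and for the hairpins 0.0174 to 0.0886. The fit with the replicate number as a block nevertheless covered all 9 libraries.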

Additional observations from a re-analysis of the deposited data

Results flagged for a closer look

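Pcdhb6 and Pcdhga6 lay above shNT in all 3 libraries with shRad21_1 and below shNT in all 3 libraries with shRad21_2. Pcdhb6 was measured at 4.07, 4.84 and 4.30 CPM in shNT, 7.64, 5.95 and 5.96 CPM with shRad21_1, and 3.92, 3.96 and 3.57 CPM with shRad21_2. Both genes were flagged from these same values, so a test of the difference between the hairpins is no separate support. For Pcdhb6 the difference was -0.77 on the log2 scale (SE 0.16, edgeR adjusted p = 0.00667). For Pcdhga6 it was -0.81 (SE 0.11, edgeR adjusted p = 9.38e-04). Both differences were called in 19 of 19 alternatives. Both genes were among the 24 of 47 tested members called lower with shRad21_2 than with shRad21_1, where 14.4% of all genes tested were lower. Of the 4 single contrasts with shNT, the rise of Pcdhb6 with shRad21_1 and the fall of Pcdhga6 with shRad21_2 were called. The rise of Pcdhb6 was called in 5 of 19 alternatives and was not called with the replicate number as a block (0.56, edgeR adjusted p = 0.0617). Groups of 3 libraries were too small for the check on single outlying libraries.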

How the results depend on the processing

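Pcdhgc3 under shRad21_2 and Pcdhb2, Pcdhb3, Pcdhb5, Pcdhb9 and Pcdhb10 under shRad21_1 were called in all 19 alternatives. The 11 higher calls under shRad21_1 became 5 with close pairs summed and 5 with a minimum of 2-fold, and ranged from 7 (without shNT replicate 3) to 11 over libraries left out. The 6 lower calls became 11 with the DESeq2 Wald test, 10 with a fit of 2 groups and 0 with close pairs summed. Over all genes tested, close pairs summed gave 64 higher and 68 lower calls under shRad21_1, against 568 and 763 in the main fit. Over libraries left out, the lower calls of protocadherin members under shRad21_1 ranged from 2 (without shNT replicate 3) to 9. They were 3 without shNT replicate 2 and 3 without shRad21_1 replicate 2. Under shRad21_2, a minimum of 2-fold left 1 of 3 higher and 12 of 22 lower calls. Libraries left out gave 2 to 4 and 17 to 26. Between the hairpins, the 24 lower calls became 13 with close pairs summed and 5 with a minimum of 2-fold, and ranged from 16 to 26 over libraries left out. The log2 ratio of the summed gamma cluster under shRad21_2 was -0.79 with library totals, against -0.72. The cause of these shifts was not tested.

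With the replicate number as a block, 10 members were higher and 8 lower under shRad21_1, 3 and 24 under shRad21_2, and 0 and 23 between the hairpins. Not every library correlated best with its own number. Of 75 results for single named genes, the block kept 73 and moved 1 past the threshold, and Pcdhb9 under shRad21_2 changed sign (-0.0031).

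The changes of sign were all in values that were not called. Pcdhgc4 under shRad21_1 ran from -0.23 (without shRad21_1 replicate 1) to 0.28 over libraries left out, and was -0.32 without the first libraries of both groups. Pcdhgc5 between the hairpins ran from -1.32 (without shRad21_2 replicate 2) to 0.36. Pcdhb18 under shRad21_1 ran from -0.038 to 0.049 over libraries left out, and was -0.0016 with library totals and -0.013 without the first libraries. Pcdhb9 under shRad21_2 ran from -0.14 to 0.092 over libraries left out, and was -0.067 with library totals, -0.0086 with a stricter filter and -0.026 with close pairs summed. Pcdhb11 under shRad21_1 ran from -0.16 to 0.033 over libraries left out, and was 0.042 with close pairs summed. Pcdhgb2 under shRad21_2 ran from -0.047 to 0.0058 over libraries left out. Pcdhga5 between the hairpins ran from -0.34 to 0.33 over libraries left out, and was 0.0052 with limma-voom and 0.33 without the first libraries. Pcdha10 and Pcdha12 had too few counts for the stricter filter.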

Other observations

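Counts of alpha members other than the C-types were odd in only 27.4% of 62 nonzero values. Odd values made up 54.9% of 193 beta values, 50.3% of 171 values of gamma-A and gamma-B members, and 53.8% of the 40568 values between 1 and 100 over all genes. The cause was not tested.

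Replicate 1 was the highest library of both knockdown groups for a group of gamma members chosen after the values were seen. The ratio of replicate 1 to the mean of the other libraries was 2.24 with shRad21_1 and 1.68 with shRad21_2 for Pcdhgb7, against 1.07 in shNT. It was 1.46 and 1.65 for Pcdhgb1, 1.34 and 1.64 for Pcdhgb6, and 1.67 and 1.37 for Pcdhga7. For Pcdhac2 it was 0.224 with shRad21_1 and 1.04 with shRad21_2.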
